A study of Saccharomyces cerevisiae with 6 samples.

Results

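Protein kinase A and the general stress regulators that it holds in check were followed at the transcript level through 9 genes of budding yeast, chosen by name: TPK2, TPK3, BCY1, PDE1, PDE2, MSN2, MSN4, RIM15 and YAK1. All 9 were found among the 7127 identifiers of the deposited count table, and all 9 passed the filter on low counts, with 850 to 8882 reads per library. The libraries were made from polyadenylated RNA of whole-cell extracts of a single haploid MATa strain in the S288c background, grown at 30°C in rich medium (YPD). The mCh- group held 3 libraries collected 180 min after addition of 1 µM beta-estradiol, and the mCh* group held 3 libraries collected at 0 min of the same addition, from 3 independent experiments per the labels, which give both groups the same treatment text. In this strain SHS1 carries loxPmCherry with the Cln2 3'UTR and the NatNT2 marker, and behind these a further loxP site and GFP. The hormone triggers excision of the mCherry sequence by Cre-EBD78, integrated at leu2 with LEU2. All libraries also share trp1::TetO:TRP1, the lys4 locus with LacO and hphNT1, the his3 locus with LacR-GFP and HIS3, TetR-mCherry and ade2. Time in culture, time since the hormone was added and any excision in that time changed together between the groups, so their parts in any difference cannot be told apart. No label says whether same-numbered libraries came from the same culture, and p-values measure the spread among the 3 libraries of each group.

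In yeast, glucose raises cyclic AMP through Ras and through the receptor Gpr1 with its G protein Gpa2. Cyclic AMP binds the regulatory subunit Bcy1 and frees the catalytic subunits of protein kinase A, and phosphodiesterases break the messenger down again. Active protein kinase A keeps the transcription factors Msn2 and Msn4 out of the nucleus and inhibits the kinase Rim15, while the kinase Yak1 acts against growth in parallel. Msn2 and Msn4 bind the stress response element (STRE), the 5 letters AGGGG, in the promoters of stress genes. Much of this regulation is by phosphorylation and localisation of the proteins, which RNA libraries do not measure.

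Of the regulators 7 differed between the groups while the genes of the transcription factors themselves did not pass the test. YAK1, TPK2, RIM15, PDE1 and BCY1 were higher in mCh- cells, by 1.89-fold down to 1.30-fold. TPK3 and PDE2 were lower, at 0.678 and 0.734 of their mCh* levels. MSN2 and MSN4 were at 1.02 and 1.03 times their mCh* levels. Of the 9 genes 5 were called higher and 2 lower at an adjusted p below 0.05 in edgeR's quasi-likelihood test, adjusted by Benjamini-Hochberg over 6220 genes. Over all genes tested 57.7% were called, 29.5% higher and 28.2% lower, so a call alone does not set a regulator apart. The groups did not overlap for 7 of the 9 regulators, against 63.4% of all genes. Their median log2 fold change was 0.37, and that of all genes tested was 0.02.

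**Figure D1:**
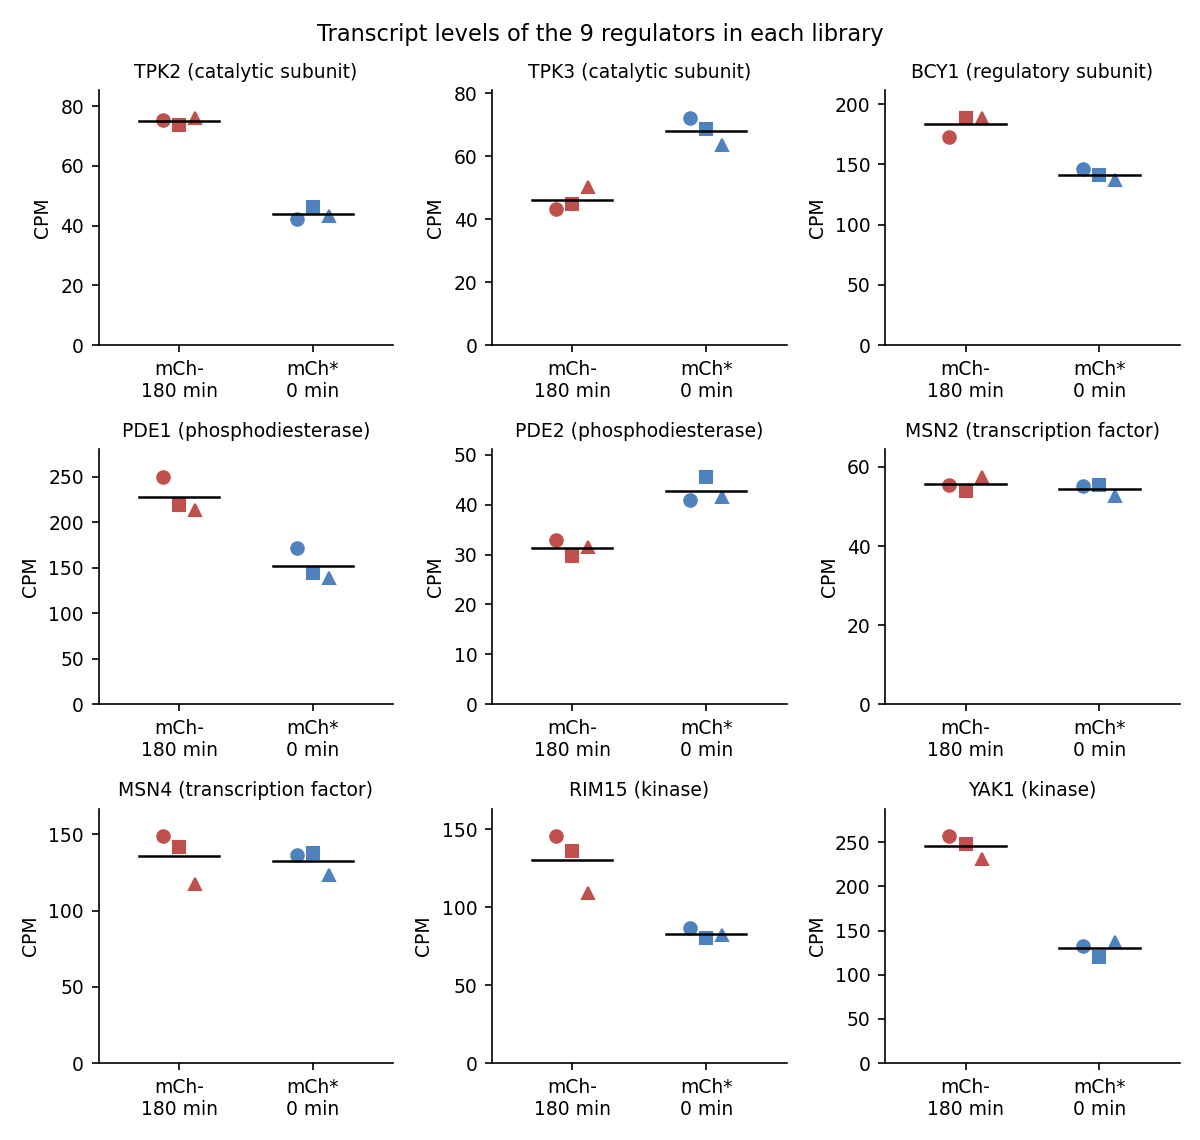
CPM (read counts scaled to the library size after correction for composition with TMM factors, linear axis from 0) of each regulator in the 3 mCh- libraries at 180 min and the 3 mCh* libraries at 0 min, with the group mean as a bar and circles, squares and triangles for replicates 1, 2 and 3. The groups are apart for 7 genes and overlap for MSN2 and MSN4, where replicate 3 of mCh- is the lowest MSN4 library at 117 CPM.

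Library totals lay between 25987900 and 34032212 counts. In such bulk extracts a change within every cell and a change in the share of cells in some state cannot be told apart. The labelled mating type was checked on its markers. Of 5 MATa markers 4 were called lower in mCh- libraries, beside 28.2% called lower among all genes tested. The part of these markers in the results below was not tested. The a-factor genes MFA1 and MFA2 averaged 188 and 387 CPM in mCh- and 553 and 747 CPM in mCh* libraries (log2 fold changes of -1.55 and -0.95). STE2, the alpha-factor receptor, and STE6, the a-factor exporter, averaged 542 and 365 CPM in mCh- and 667 and 498 CPM in mCh* libraries (-0.30 and -0.45). Without composition factors, on library sizes only, STE2 (-0.05) and STE6 (-0.20) were not called, and STE2 also lost its call without mCh- replicate 2 (adjusted p = 0.0594 in edgeR) or mCh* replicate 2 (0.0520). BAR1, the protease that degrades alpha-factor, averaged 283 CPM in mCh- and 295 CPM in mCh* libraries and was not called. Of the MATalpha markers the alpha-factor genes MF(ALPHA)1 and MF(ALPHA)2 had at most 17 and 16 counts in any library and were not tested. STE3, the a-factor receptor, averaged 5.67 CPM in mCh- and 5.05 CPM in mCh* libraries, and the agglutinin gene SAG1 averaged 16.3 CPM in each group, and neither was called. None of the 9 regulators shares an exact run longer than 36 bases with the rest of the R64 genome. Within the pairs the longest shared run was 14 bases for TPK2 with TPK3, 12 for PDE1 with PDE2 and 12 for MSN2 with MSN4. YAK1 overlaps the annotated open reading frame IRC9 on the same strand over 245 bases, which leaves its counts uncertain there. IRC9 itself had 2.65 ± 1.03 CPM in mCh- and 1.38 ± 0.651 CPM in mCh* libraries (SD, n = 3).

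The STRE letters, which Msn2 and Msn4 bind in promoters of stress genes, were searched for upstream of the regulators. Whether either factor acts at these sites was not tested. The search covered either strand within 500 bases upstream of the start codon in R64. The capitals mark the 5 letters (CCCCT where the element faces the other way). Each line is read 5′ to 3′ on the strand of its gene. YAK1 had 3 elements close together, TPK2, PDE1 and PDE2 had 1 each, and the catalase gene CTT1, a textbook Msn2/Msn4 target shown for comparison and picked with its values known, had 3.
YAK1, 249 bases upstream, chrX:150625-150649, minus strand: accctaaccgCCCCTtctgaaccat
YAK1, 222 bases upstream, chrX:150598-150622, minus strand: caagcaatgcCCCCTcctcagattt
YAK1, 206 bases upstream, chrX:150582-150606, minus strand: ctcagatttaCCCCTtctgggctga
TPK2, 280 bases upstream, chrXVI:165966-165990, plus strand: aaggaaattaAGGGGgagcggagca
PDE1, 26 bases upstream, chrVII:35617-35641, plus strand: tcttcttcatCCCCTtttttaccaa
PDE2, 425 bases upstream, chrXV:1015232-1015256, minus strand: tgtaatctgcAGGGGtcgctctcct
CTT1, 378 bases upstream, chrVII:654246-654270, plus strand: ctctttttcaAGGGGatcaccggta
CTT1, 363 bases upstream, chrVII:654261-654285, plus strand: atcaccggtaAGGGGccaagcggtg
CTT1, 133 bases upstream, chrVII:654491-654515, plus strand: tttatcgtatCCCCTactgctacac

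These letters are common: 34.1% of 5987 nuclear protein-coding genes hold at least 1 in such a window, 8.13% at least 2 and 1.84% at least 3. Among the regulators 4 of 9 held at least 1 and YAK1 alone held 3. TPK3, BCY1, MSN2, MSN4 and RIM15 had no match in this window. The letters AGGGAT, the core of the post-diauxic shift element read by Gis1 downstream of Rim15, cannot overlap AGGGG and were found upstream of 15.4% of the same genes and of 0 of the 9 regulators.

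The catalytic subunits moved in opposite directions. TPK2 (YPL203W, chromosome XVI, 166256 to 167398 in R64, as for all positions here), whose product is linked to filamentous growth, had 75.2, 73.7 and 76.1 CPM in the mCh- libraries and 42.4, 46.1 and 43.1 CPM in the mCh* libraries. Each mCh- library was above each mCh* library, and the log2 fold change was 0.77 ± 0.08 (SE, adjusted p = 7.32e-07 in edgeR). TPK3 (YKL166C, chromosome XI, 134509 to 135705) had 43.3, 44.9 and 50.3 CPM in mCh- and 72.3, 68.6 and 63.5 CPM in mCh* libraries. Here every mCh- library was the lower one, with a log2 fold change of -0.56 ± 0.09 (SE, adjusted p = 5.83e-05 in edgeR). BCY1 (YIL033C, chromosome IX, 290419 to 291669), the regulatory subunit that silences the kinase, had 173, 189 and 189 CPM in mCh- and 146, 141 and 137 CPM in mCh* libraries. It was higher in each mCh- library, at 0.37 ± 0.08 on the log2 scale (SE, adjusted p = 0.000634 in edgeR).

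Because TPK2 and TPK3 moved apart, their order changed. The count ratio of TPK3 to TPK2 within a library, which does not depend on how libraries are scaled, was 0.576, 0.609 and 0.662 in mCh- and 1.71, 1.49 and 1.47 in mCh* libraries. The ratio thus lay below 1 in every mCh- library and above 1 in every mCh* library, at 0.396 of its mCh* level (a difference of -1.34 in mean log2 ratio). An exact two-sided permutation test over libraries gave p = 0.1, the smallest that 3 against 3 allows, and 0.15 after Benjamini-Hochberg adjustment over the 3 ratios compared.

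The phosphodiesterase genes were likewise split. PDE1 (YGL248W, chromosome VII, 35653 to 36762), which encodes the low-affinity enzyme, had 249.9, 219 and 213 CPM in mCh- and 172, 144 and 139 CPM in mCh* libraries. All mCh- values were above all mCh* values, by 0.58 ± 0.10 on the log2 scale (SE, adjusted p = 8.82e-05 in edgeR). PDE2 (YOR360C, chromosome XV, 1013241 to 1014821), which encodes the high-affinity enzyme, had 33.0, 29.7 and 31.4 CPM in mCh- and 41.0, 45.6 and 41.6 CPM in mCh* libraries. The fall was 0.45 ± 0.09 on the log2 scale (a log2 fold change of -0.45, SE, adjusted p = 0.000637 in edgeR), with no overlap between the groups. The count ratio of PDE2 to PDE1 was 0.132, 0.135 and 0.148 in mCh- and between 0.238 and 0.316 in mCh* libraries, 0.489 of its mCh* level (exact permutation p = 0.1, adjusted 0.15). PDE1 stood above PDE2 in every library on the scale of CPM per kilobase of coding length, at 205 ± 17.7 against 19.8 ± 1.05 in mCh- and 137 ± 16.0 against 27.0 ± 1.59 in mCh* (SD, n = 3).

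**Figure D2:**
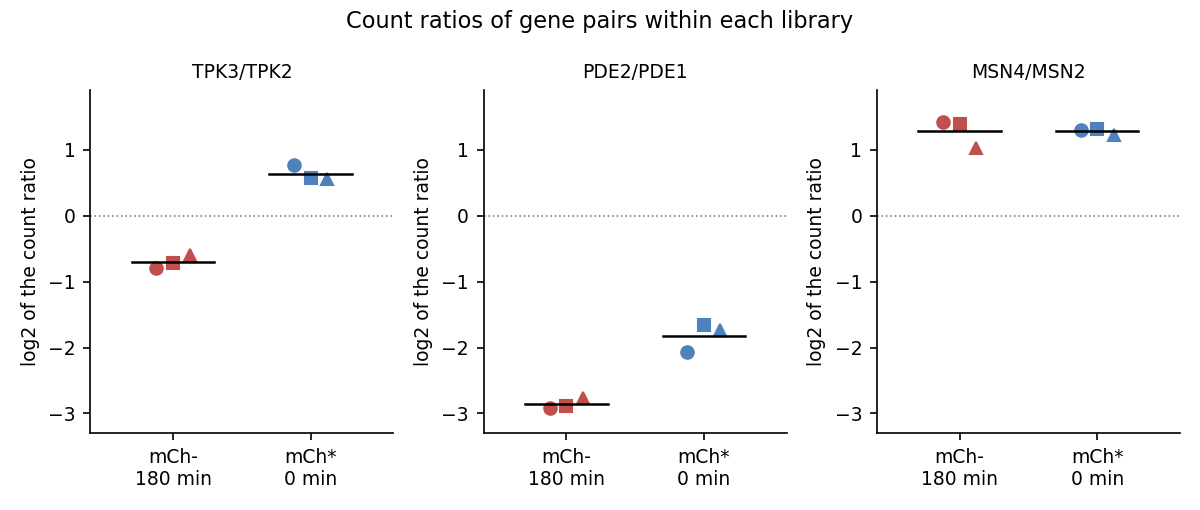
log2 of the count ratio within each library for the pairs TPK3/TPK2, PDE2/PDE1 and MSN4/MSN2, with mCh- at 180 min left of mCh* at 0 min, a bar at the group mean and a dotted line at equal counts. The mean log2 ratio was -0.70 in mCh- and 0.63 in mCh* for TPK3/TPK2, -2.86 and -1.82 for PDE2/PDE1, and 1.28 in each group for MSN4/MSN2.

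With composition factors, transcripts of the stress transcription factors stayed near their mCh* levels. MSN2 (YMR037C, chromosome XIII, 344403 to 346517) had 55.4, 54.0 and 57.5 CPM in mCh- and 55.3, 55.4 and 52.6 CPM in mCh* libraries, and the groups overlapped. Its log2 fold change was 0.03 ± 0.08 (SE, adjusted p = 0.743 in edgeR), and the 95% interval ran from 0.911 to 1.15-fold. MSN4 (YKL062W, chromosome XI, 323228 to 325120) had 149, 141 and 117 CPM in mCh- and 136, 138 and 123 CPM in mCh* libraries, so that mCh- libraries held the highest and the lowest value. Its log2 fold change was 0.04 ± 0.09 (SE, adjusted p = 0.768 in edgeR), with a 95% interval from 0.893 to 1.18-fold. MSN4 counts were 2.69, 2.62 and 2.04 times those of MSN2 in mCh- libraries and 2.46, 2.49 and 2.35 times in mCh* libraries, a difference of -0.0026 in mean log2 ratio (exact permutation p = 1). With library sizes only, without composition factors, MSN2 (0.29, adjusted p = 0.00468 in edgeR) and MSN4 (0.29, adjusted p = 0.0161) were called higher. That scaling moved the median over all genes to 0.27 (log2), and relative to it MSN2 was at 0.02 and MSN4 at 0.02. Subtracting that median comes close to applying composition factors, so it cannot decide between the scalings. Which of them holds was not tested.

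The kinases that act with the stress factors rose. YAK1 (YJL141C, chromosome X, 147967 to 150390), a growth-antagonising kinase that phosphorylates Hsf1 and Pop2, had 257, 248 and 231 CPM in mCh- and 132, 120 and 137 CPM in mCh* libraries. The groups were well apart, with a log2 fold change of 0.92 ± 0.08 (SE, adjusted p = 2.06e-07 in edgeR), which is above that of 93.6% of all genes tested. RIM15 (YFL033C, chromosome VI, 69115 to 74427), the kinase of entry into quiescence, had 146, 136 and 109 CPM in mCh- and 86.4, 80.5 and 82.1 CPM in mCh* libraries. Each mCh- library was higher, replicate 3 least so, and the log2 fold change was 0.65 ± 0.10 (SE, adjusted p = 4.13e-05 in edgeR). RIM15 spans 5313 bases. Among the 87 protein-coding genes longer than 5000 bases the median log2 fold change was 0.20, with 34 called higher and 10 lower. That was 39.1% higher, beside 29.5% higher and 28.2% lower among all genes tested. The median level of these long genes, set against the mean of the mCh* libraries on the log2 scale, was 0.32, 0.19 and 0.07 in the mCh- libraries in replicate order and -0.03, -0.08 and 0.11 in the mCh* libraries. Higher medians were not particular to this class. Genes of 2000 to 3000 bases, among them YAK1 and MSN2, had a median of 0.16 with 43.5% called higher. Those of 3000 to 5000 bases had a median of 0.29 with 56.9% called higher. After a smooth trend of fold change over gene length and GC content was taken out, RIM15 was at 0.43 (adjusted p = 0.00154 in edgeR). YAK1 was then at 0.82.

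**Figure D3:**
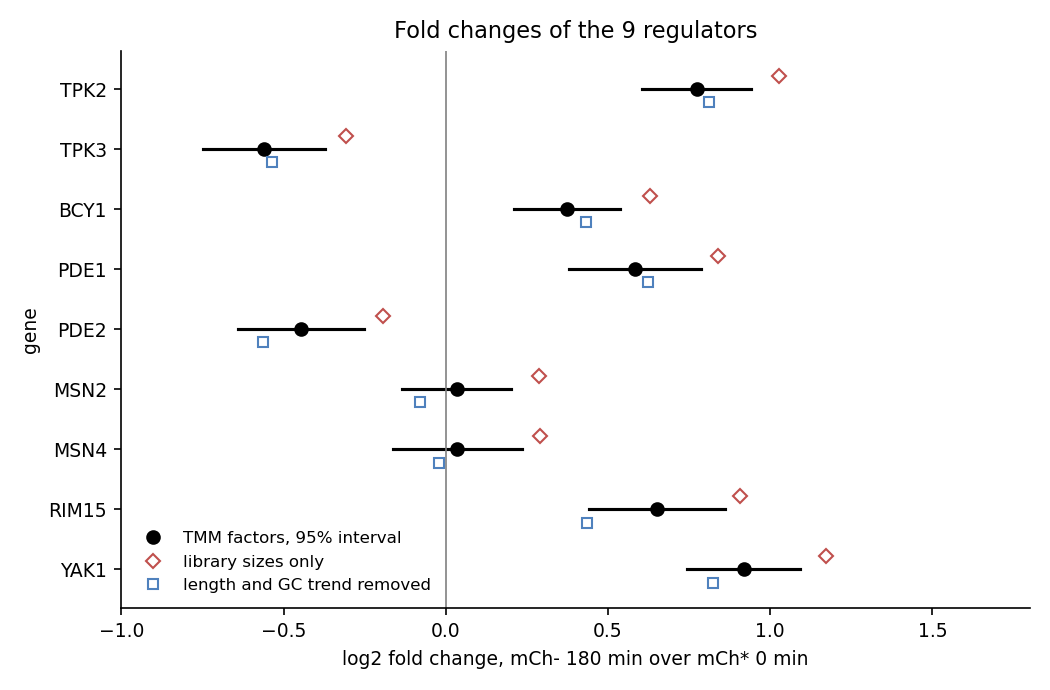
log2 fold change of mCh- at 180 min over mCh* at 0 min for each regulator, with the 95% interval of the edgeR fit (black), the value with library sizes only (red diamonds) and the value after a smooth trend over gene length and GC was taken out (blue squares). Intervals of 7 genes lie clear of 0, and those of MSN2 (-0.13 to 0.20) and MSN4 (-0.16 to 0.23) include it.

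With library sizes only PDE2 was at -0.19 and no longer called (adjusted p = 0.0773 in edgeR), and TPK3 was at -0.31 and BCY1 at 0.63. Relative to the median of all genes in that scaling they were at -0.46, -0.58 and 0.36. As for the MSN genes, this subtraction cannot decide between the scalings.

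The order of levels was read on the scale of CPM per kilobase of coding length. In mCh- cells it ran PDE1 (205 ± 17.7), BCY1 (147 ± 7.42), YAK1 (101 ± 5.44), MSN4 (71.7 ± 8.77), TPK2 (65.6 ± 1.06), TPK3 (38.6 ± 3.09), MSN2 (26.3 ± 0.827), RIM15 (24.5 ± 3.57) and PDE2 (19.8 ± 1.05, SD, n = 3). Libraries of MSN4 and TPK2, of MSN2 and RIM15, and of RIM15 and PDE2 overlapped, so these neighbours did not differ beyond their spread. In mCh* cells PDE1 (137 ± 16.0) and BCY1 (113 ± 3.66) again came first, before MSN4 (70.0 ± 4.13), TPK3 (56.9 ± 3.68), YAK1 (53.6 ± 3.54), TPK2 (38.4 ± 1.73), PDE2 (27.0 ± 1.59), MSN2 (25.7 ± 0.756) and RIM15 (15.6 ± 0.574). There TPK3 overlapped YAK1, and PDE2 overlapped MSN2. YAK1 thus ranked 3 in mCh- and 5 in mCh* cells, and RIM15 ranked 8 in mCh- and 9 in mCh* cells.

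YAK1 was the called regulator with the largest change, and among 5498 other nuclear protein-coding genes averaging 50 counts or more its pattern over the 6 libraries was most like that of PDR1, YML020W and GSY2. Pearson correlations of log2 CPM were 0.999, 0.999 and 0.998, given as a description over 6 libraries that fall into the same groups. PDR1, a regulator of drug resistance genes, averaged 115 ± 1.96 CPM in mCh- and 86.0 ± 2.71 CPM in mCh* libraries, a smaller step than that of YAK1. The glycogen synthase gene GSY2 averaged 326 ± 47.6 CPM in mCh- and 80.0 ± 6.87 CPM in mCh* libraries (SD, n = 3).

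Genes that set the cyclic AMP input to protein kinase A, those that promote it and those that oppose it, were mostly higher in mCh- cells. Of 13 such genes 10 were called higher and 1 lower, with a median log2 fold change of 0.55, beside 29.5% higher and 28.2% lower among all genes. The list holds 5 genes that oppose the input (GPB1, GPB2, IRA1, IRA2 and RGS2), and 4 of these were among the 10 called higher. With the length and GC trend removed 8 of the 13 genes were called higher and 1 lower, and the median was 0.40. The adenylate cyclase gene CYR1 averaged 328 ± 48.4 CPM in mCh- and 162 ± 19.6 CPM in mCh* libraries (log2 fold change 1.02 ± 0.11 SE, adjusted p = 1.58e-06 in edgeR). GPA2, the G protein alpha subunit of the glucose receptor, had 271 ± 14.2 CPM in mCh- and 135 ± 4.42 CPM in mCh* libraries (1.00 ± 0.08 SE, adjusted p = 6.00e-08). The receptor gene GPR1 (0.22, adjusted p = 0.0263 in edgeR) rose less, and its call was lost without mCh- replicate 1 (adjusted p = 0.0929), mCh- replicate 2 (0.0558), mCh* replicate 1 (0.121) or mCh* replicate 2 (0.0638). Without the length and GC trend GPR1 was at -0.03. GPB1 (0.55) and GPB2 (0.43), kelch proteins that act against protein kinase A signalling, rose too, as did SRV2 (0.64), the cyclase-associated protein.

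The Ras genes differed in direction like the TPK and PDE pairs. RAS2 averaged 250.5 ± 14.2 CPM in mCh- and 178 ± 3.99 CPM in mCh* libraries and rose by 0.49 on the log2 scale (adjusted p = 6.68e-05 in edgeR). RAS1 averaged 66.0 ± 3.33 CPM in mCh- and 104 ± 6.63 CPM in mCh* libraries (log2 fold change -0.66 ± 0.08 SE, adjusted p = 5.08e-06), and the groups of each gene did not overlap. SDC25, related to the Ras exchange factor gene CDC25 and annotated as a pseudogene in R64, rose (0.71), and among the 12 protein-coding genes of the list 9 were called higher. CDC25 itself was at 0.12 and not called, except with library sizes only (0.37). IRA2 (0.82) and IRA1 (0.66), the GTPase activators that switch Ras off, rose. IRA1 lost its call once the trend over length and GC was taken out (0.26, adjusted p = 0.0563), and CYR1, IRA1 and IRA2 are all among the genes over 5000 bases. RGS2, which turns Gpa2 off, was scarce at 11.8 ± 1.88 CPM in mCh- and 14.9 ± 3.98 CPM in mCh* libraries and was not called (-0.33, adjusted p = 0.141), but was called lower without mCh* replicate 1 (-0.51, adjusted p = 0.0205).

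Transcripts of the genes listed as targets of protein kinase A and Yak1 also leaned upward, which does not measure phosphorylation of their products. Of 15 listed effectors 14 were tested (FLO8 is not analysed here), 12 were called higher and 1 lower, and the median log2 fold change was 0.47, beside 29.5% higher and 28.2% lower among all genes. With the length and GC trend removed 10 were called higher and 2 lower, and the median was 0.31. ATG1 (1.21) and ATG13 (0.92), partners that start autophagy, CKI1 (0.86), choline kinase, and NTH1 (0.61), neutral trehalase, had the smallest adjusted p among the rises (4.21e-08 to 1.64e-05 in edgeR). ATG1 averaged 66.4 ± 3.97 CPM in mCh- and 28.7 ± 2.2 CPM in mCh* libraries (SD, n = 3). POP2, a subunit of the Ccr4-Not deadenylase that Yak1 phosphorylates, was the called fall, at -0.35 (adjusted p = 0.00179), and lost its call under library sizes only (-0.10).

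Partners of Msn2, Msn4, Rim15 and Bcy1 were more mixed. Of 18 genes 10 were called higher and 3 lower (72.2% called, against 57.7% of all genes), with a median log2 fold change of 0.24. MSN5, the exporter that returns Msn2 to the cytoplasm, rose by 0.63, GIS1, a transcription factor downstream of Rim15, by 0.70, TOR1 by 0.61 and the 14-3-3 gene BMH1 by 0.49 (adjusted p from 1.84e-05 to 0.000207 in edgeR). TOR1 spans 7413 bases and lost its call when the length and GC trend was removed with the replicate block in the fit (0.27, adjusted p = 0.0685). GIS1 had 272, 232 and 175 CPM in mCh- and 138, 136 and 145 CPM in mCh* libraries, so the groups were apart but mCh- replicate 3 was closest to mCh*. SCH9, a growth-promoting kinase that keeps Rim15 in the cytoplasm, averaged 66.9 ± 3.08 CPM in mCh- and 117 ± 7.02 CPM in mCh* libraries (-0.80 ± 0.08 SE, adjusted p = 5.77e-07 in edgeR). ZDS2 (-0.43), the paralog of ZDS1, a gene linked to Bcy1 localisation, and PSR2 (-0.22), a phosphatase linked to Msn2 dephosphorylation, were the other falls. With library sizes only ZDS2 was at -0.17 and PSR2 at 0.03, and neither was called. The PSR2 call (adjusted p = 0.0234) was also lost without the length and GC trend (0.0762) and without any of mCh- replicate 2 (0.0693), mCh- replicate 3 (0.0559), mCh* replicate 1 (0.0651) and mCh* replicate 2 (0.0729).

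Genes listed as targets of Msn2 and Msn4 had a larger median change than the other lists. Of 28 such genes 27 were called higher (96.4%, against 29.5% of all genes) and 0 lower, and the median log2 fold change was 1.56. The strongest by adjusted p were DCS2 (2.64), TFS1 (2.36), HSP78 (2.22) and HSP26 (2.06). HSP26, a small heat shock protein gene, averaged 60.7 ± 4.38 CPM in mCh- and 14.6 ± 1.53 CPM in mCh* libraries, and CTT1 averaged 66.5 ± 6.89 CPM in mCh- and 22.4 ± 2.02 CPM in mCh* libraries (SD, n = 3). SSA3, an Hsp70 gene, was the target not called (0.21, adjusted p = 0.0983). It was called with library sizes only (0.47) and without mCh- replicate 3 (0.28, adjusted p = 0.0404). In the 500-base windows 26 of the 28 genes held at least 1 STRE match, against 34.1% of all nuclear protein-coding genes, and SSA3 held 0. The list was drawn up with earlier results of these libraries known, so its direction is not independent evidence. Its genes were listed as known STRE genes, so their high share with STRE matches is not independent evidence either.

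**Figure D4:**
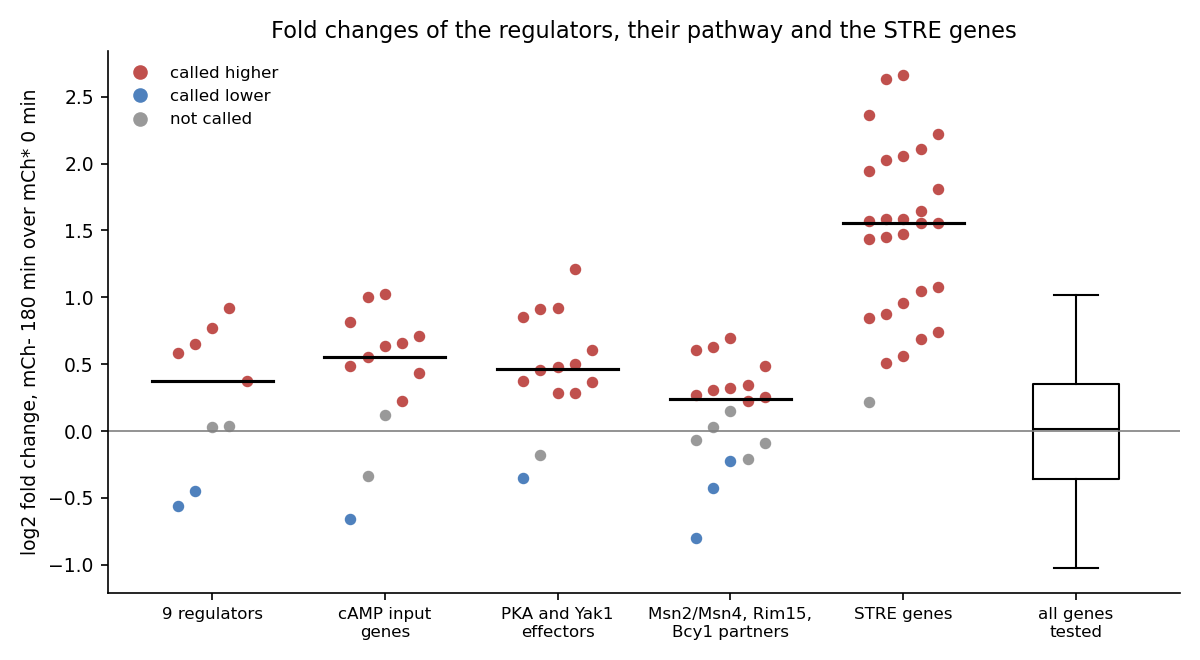
log2 fold change of mCh- at 180 min over mCh* at 0 min for each gene of the regulator list and the pathway lists (points, red called higher, blue called lower, grey not called, bar at the list median), and for all 6220 genes tested as a box of quartiles with whiskers from the 5th to the 95th percentile. List medians were 0.37, 0.55, 0.47, 0.24 and 1.56 from left to right, beside 0.02 for all genes.

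Across the 5701 nuclear protein-coding genes tested, median fold changes were higher where more STRE letters lay upstream. The median log2 fold change was -0.04 for 3740 genes with 0 matches, 0.14 for 1487 genes with 1, 0.27 for 365 genes with 2, 0.51 for 82 genes with 3 and 0.74 for 27 genes with 4 or more. The share called higher was 25.3%, 39.3%, 50.1%, 64.6% and 70.4% in the same order. Beside these, YAK1 with 3 matches was at 0.92, while RIM15 with 0 matches was at 0.65 and PDE2 with 1 match was at -0.45. Genes with the same number of matches thus spread widely. TPK3 and PDE2 lay below their class medians and the other regulators above theirs, MSN2 and MSN4 only slightly.

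**Figure D5:**
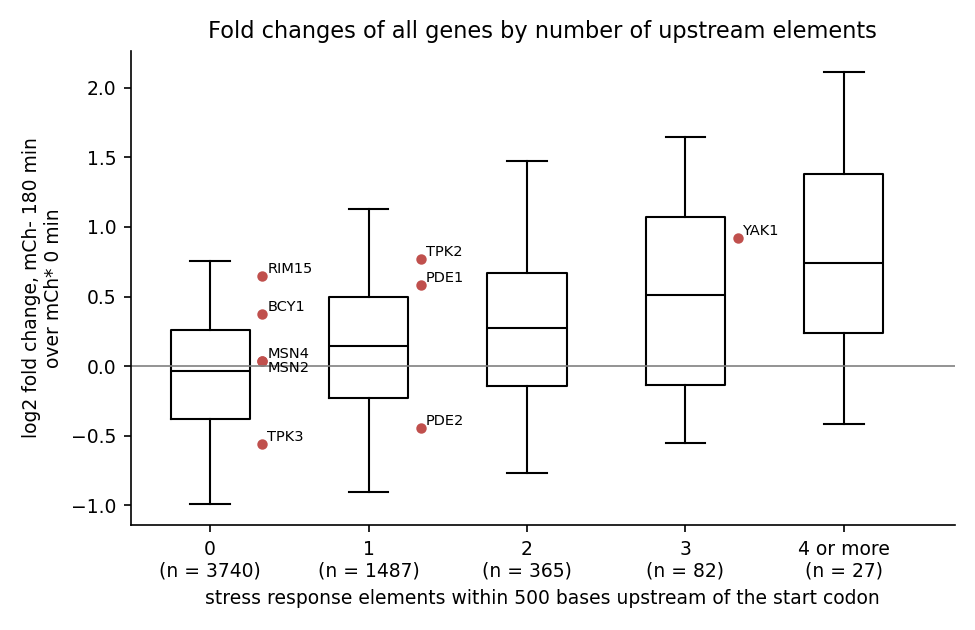
log2 fold change of mCh- at 180 min over mCh* at 0 min for all tested nuclear protein-coding genes, grouped by the number of STRE matches within 500 bases upstream of the start codon (boxes show quartiles, whiskers the 5th to 95th percentile), with the 9 regulators as labelled red points. Class medians run from -0.04 at 0 matches to 0.74 at 4 or more, and YAK1 is the regulator with the most matches, 3.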

How the data were processed

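The members and all gene lists were chosen with earlier results of these data known. The authors deposited raw counts, whole-number reads per gene that are not normalized, in 1 table. Tools named in the submitters' processing notes are HTSeq 0.6.1p1, STAR 2.5.3a, cutadapt 1.10 and bcl2fastq 2.20.0.422, with sacCer3 and R64 as builds. The kit marked strand per the labels' protocols, but the strand setting of the counting is not given in the sources used here. Names, positions and coding lengths came from the RefSeq annotation of R64, which matched 6047 identifiers by locus tag and 41 by symbol.

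The test on counts used R 4.3.3 and edgeR 4.0.16 (TMM factors, default filter by group, quasi-likelihood F test, two-sided, Benjamini-Hochberg adjustment over 6220 genes, 907 removed). SE and 95% intervals came from the same fit. CPM were computed here on TMM-adjusted library sizes. Libraries were grouped by their titles. At 25987900 to 34032212 counts per library, 1 CPM stood for 25.7 to 36.5 reads. Genes named are the 9 members, the cAMP input genes, up to 4 called genes per list and direction by adjusted p, and genes whose pattern was most like that of the most changed member. CTT1, SSA3, IRC9 and the mating-type markers fall outside this rule and were named after their values were seen. The gene test was checked on simulated counts in which most genes were left unchanged. That check does not bear on the choice of scaling. Alternatives used DESeq2 1.42.0, limma 3.58.1, other scalings, filters and gene sets, a replicate block, a loess trend on length and GC content (span 0.3), a threshold of 0.01 and each library left out. Figures used matplotlib 3.10.9.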

Additional observations from a re-analysis of the deposited data

How the results depend on the processing

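Of the 9 regulators 7 were called under every alternative run except library sizes only, which gave 8 (7 higher and 1 lower) and moved all genes to 2996 higher and 969 lower in place of 1833 and 1754. Under that scaling PDE2 lost its call (-0.19), and MSN2 (0.29) and MSN4 (0.29) gained one. Neither MSN gene was called otherwise, but their signs turned: with the length and GC trend removed MSN2 was at -0.079 and MSN4 at -0.022, and with the replicate block added to that trend at -0.079 and -0.028. Leaving out 1 library gave MSN2 values of -0.00068 to 0.051, MSN4 values of -0.037 to 0.12 and a difference in the log2 ratio of MSN4 to MSN2 of -0.076 to 0.12. The causes were not tested. The lists stayed within 1.5 times their counts, at 9 to 12 cAMP input genes, 11 to 14 effectors, 9 to 13 partners and 27 to 28 targets called, and over 1312 gene-setting pairs 41 calls were lost, 11 gained and 3 reversed. The 3 reversals were GPR1 with the length and GC trend removed (-0.03, also with the block) and PSR2 with library sizes only. Deviations of same-numbered libraries from their group means correlated at -0.02, -0.03 and -0.18, and those of differently numbered libraries at -0.07 to 0.11. With 3 libraries per group such values cannot show whether same-numbered libraries came from the same culture. With the replicate block 3390 genes were called in place of 3587, 7 regulators as before, and GPR1 was lost (adjusted p = 0.0542). The 3 against 3 design cannot give the ratios an exact p below 0.1.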
